A study of Homo sapiens with 8 samples.

Results

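Ephrins and their Eph receptors were followed across normal-like, transformed and retinoic acid-treated human breast epithelial cells. The genes were EFNA1, EFNA5, EFNB1, EFNB2, EPHA2, EPHA4, EPHB2, EPHB3, EPHB4 and EPHB6, 10 in all, taken by name with earlier results of these data known. A gene was measured where a probe set of the array named it and no other gene in the platform annotation. This gave 9 of the 10 genes with 19 probe sets, of 19775 genes and 54613 probe sets on the array, and EPHB2 had no such probe set and was not analysed here. Each gene is described at its probe set with the highest mean log2 signal, and its other probe sets served as a check.

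The samples were 8 Affymetrix U133 Plus 2.0 arrays, 2 in each of 4 groups. The trMCF clone 11 cells are 1 clone, ring-cloned from MCF-10F cells that had been transformed with a high dose of estradiol, and they form no tubules in collagen. The same clone was grown for 26 days in 1 μM or 10 μM all trans-retinoic acid (ATRA), a ligand of nuclear receptors. MCF-10F, the parental line, is spontaneously immortalized and normal-like, so each of the 4 groups carries its immortalized background and each treated or untreated trMCF group carries the estradiol exposure. Nothing in the labels settles if the untreated clone received the DMSO vehicle, or if both arrays of a pair had their own culture, so p-values measure the spread between these arrays, which may be technical. Replicate 1 of trMCF clone 11 is tagged as normal in its disease state, against its title, and was grouped by its title.

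Eph receptors are receptor tyrosine kinases, and ephrins are ligands held on the membrane of the neighbouring cell. Binding sends a signal into the receptor-bearing cell (forward) and another into the ephrin-bearing cell (reverse), and the pathway is known for cell repulsion, boundary formation and vessel growth. A ephrins are tethered by a lipid anchor and B ephrins span the membrane. In the mouse mammary gland ephrin-B2 is made by luminal cells and EphB4 mainly by myoepithelial cells, and EphA2 takes part in duct branching.

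Signals were linear intensities and were compared on the log2 scale. Arrays of a group agreed unequally: the pair differed over 2-fold at 7.71% of probe sets in trMCF clone 11, 0.126% at 1 μM ATRA, 0.211% at 10 μM ATRA and 3.48% in MCF-10F. The epithelial markers CDH1, EPCAM and KRT18 were bright on the 8 arrays, between 4472 and 9044. DSP, the other pan-epithelial marker, was at 12391 and 15433 in trMCF clone 11 and 9509 and 10740 in MCF-10F. It was at 7237 and 6476 at 1 μM ATRA, and 6612 and 6020 at 10 μM ATRA. KRT14, a basal keratin, was at 3230 and 4549 in trMCF clone 11, 212 and 116 at 1 μM ATRA, 42.3 and 34.0 at 10 μM ATRA, and 9150 and 1330 in MCF-10F. Of 6 endothelial markers, the 5 CDH5, VWF, KDR, TEK and TIE1 were under 100 on the 8 arrays. The sum of the 6, carried by PECAM1, was 268 to 383 in trMCF clone 11, 698 to 879 at 1 μM ATRA, 949 to 1306 at 10 μM ATRA and 213 to 1185 in MCF-10F. The sum of 7 fibroblast markers, 4 of them under 100 throughout, was 468 to 684, 310 to 316, 330 to 333 and 1052 to 1783 in the same order of groups. PTPRC, the pan-leukocyte marker, stayed under 16 on the 8 arrays. Basal markers (4 of 6 measured) summed to 15844 to 17758, 7403 to 8668, 5558 to 6323 and 10146 to 30365, and 7 luminal markers to 22730 to 27105, 24684 to 25615, 24372 to 24512 and 26935 to 30396. Leukocyte markers (3 of 5 measured) summed to 175 to 248, 504 to 599, 661 to 738 and 119 to 469. CD14 carried these sums except on MCF-10F replicate 1, where it read 49.1 and CD3E read 58.2. The part of these shifts in the results was not tested.

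EFNB2, the gene of the transmembrane ligand ephrin-B2, was low in the transformed clone and high after either dose of ATRA. Its signal at probe set 202668_at was 782 and 1162 in trMCF clone 11, 3836 and 3463 at 1 μM ATRA, 3598 and 2636 at 10 μM ATRA, and 4444 and 4276 in MCF-10F. Both trMCF clone 11 arrays lay below the 6 others, the 2 doses overlapped, and the ATRA arrays came close to MCF-10F without reaching it. On the log2 scale EFNB2 fell by 2.19 against MCF-10F in trMCF clone 11 (SE 0.22, 95% interval -2.73 to -1.66, limma adjusted p = 0.0146), a 4.57-fold difference. After 1 μM ATRA it rose by 1.93 against trMCF clone 11 (SE 0.22, interval 1.40 to 2.47, limma adjusted p = 0.0281). After 10 μM ATRA it rose by 1.69 (SE 0.23, limma adjusted p = 0.0118). The second probe set, 202669_s_at, read 362 and 300 in trMCF clone 11, 1471 and 1212 at 1 μM ATRA, 1266 and 999 at 10 μM ATRA, and 1886 and 1209 in MCF-10F. It gave the same 3 calls, with log2 differences of -2.20, 2.02 and 1.77, but there both doses overlapped MCF-10F.

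Against the parental line, EFNB2 in treated cells was -0.26 on the log2 scale at 1 μM ATRA (interval -0.79 to 0.28, limma adjusted p = 0.843) and -0.50 at 10 μM ATRA (interval -1.04 to 0.04, limma adjusted p = 0.409). Neither passed the test, and the intervals still allow a level somewhat below MCF-10F. The fall in trMCF clone 11 lost its call without MCF-10F replicate 1 (limma adjusted p = 0.0792) and without either 1 μM array (0.0919), which only lend their spread to that fit, over a range of 0.00425 to 0.0919 across the alternatives. Without trMCF clone 11 replicate 1, the array with the conflicting tag, EFNB2 still fell by 1.91 (limma adjusted p = 0.0237) and rose by 1.65 at 1 μM ATRA (0.0378).

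**Figure D1:**
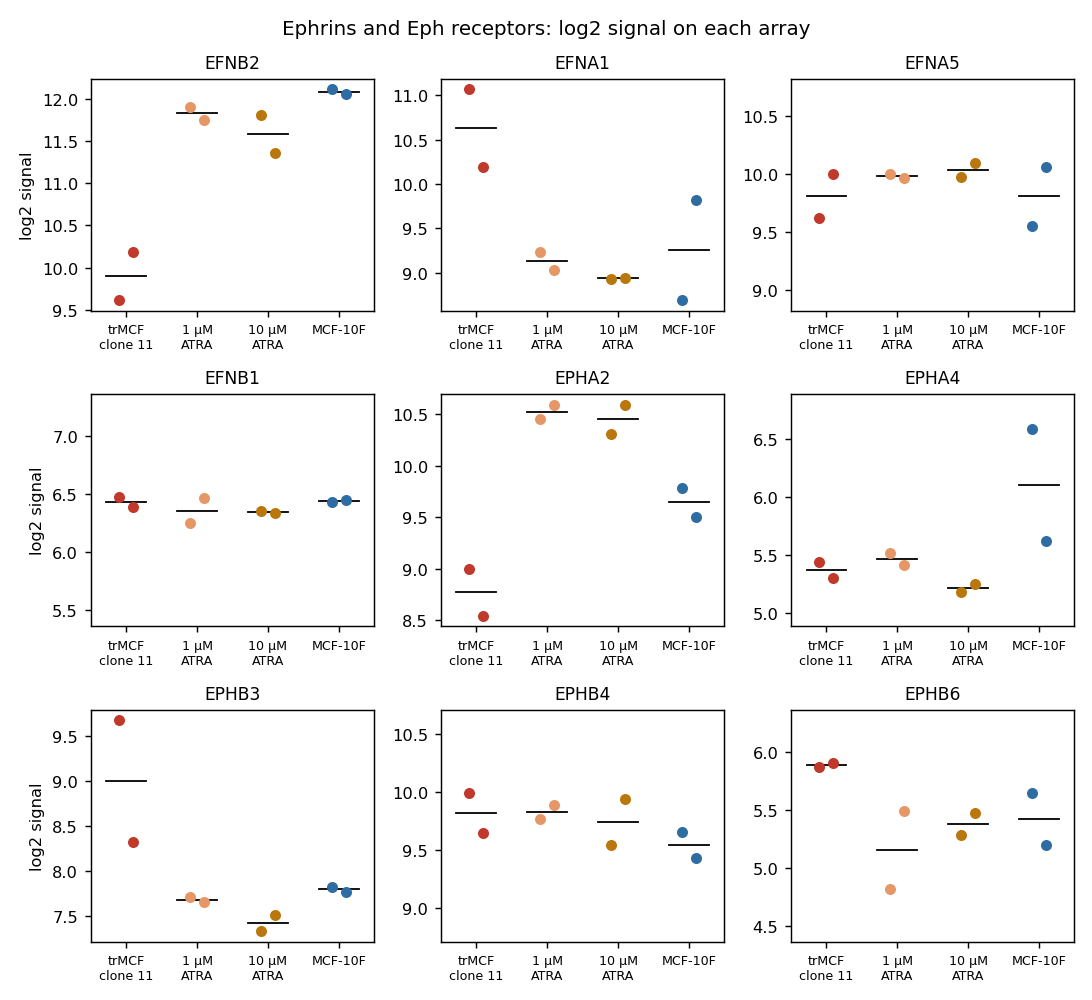
Log2 signal (y axis) of the 9 measured ephrin and Eph genes on each of the 8 arrays (points), by group (x axis), at the brightest probe set; the black lines are means of 2 arrays. EFNB2 and EPHA2 are lowest in trMCF clone 11, while EFNA1 and EPHB3 are highest there with arrays that lie far apart.

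The sequence upstream of the 4 genes that moved most is shown because their levels in the clone ran in opposite directions, EFNB2 and EPHA2 low and EFNA1 and EPHB3 high. Each window runs from 250 bases before to 50 bases after the start in RefSeq (GRCh38.p14), 5′ to 3′ on the gene's strand. Capitals mark 3 motifs looked for on both strands, the GC box GGGCGG, the CCAAT box CCAAT and the cAMP response element TGACGTCA. EFNB2 lies at chr13:106535613-106535912 (minus strand), EPHA2 at chr1:16156020-16156319 (minus strand), EFNA1 at chr1:155127626-155127925 (plus strand) and EPHB3 at chr3:184561535-184561834 (plus strand).
EFNB2: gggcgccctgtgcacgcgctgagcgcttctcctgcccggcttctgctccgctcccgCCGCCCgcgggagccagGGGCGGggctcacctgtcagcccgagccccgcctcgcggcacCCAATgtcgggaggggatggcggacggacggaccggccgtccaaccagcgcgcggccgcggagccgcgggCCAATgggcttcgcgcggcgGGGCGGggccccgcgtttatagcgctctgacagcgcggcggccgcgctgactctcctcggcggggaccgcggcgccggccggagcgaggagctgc
EPHA2: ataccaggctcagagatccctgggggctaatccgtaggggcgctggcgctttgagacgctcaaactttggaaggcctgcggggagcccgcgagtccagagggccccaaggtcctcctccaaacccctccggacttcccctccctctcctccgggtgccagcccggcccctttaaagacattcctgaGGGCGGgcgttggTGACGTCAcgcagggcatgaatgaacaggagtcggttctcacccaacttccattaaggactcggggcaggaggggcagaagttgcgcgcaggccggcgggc
EFNA1: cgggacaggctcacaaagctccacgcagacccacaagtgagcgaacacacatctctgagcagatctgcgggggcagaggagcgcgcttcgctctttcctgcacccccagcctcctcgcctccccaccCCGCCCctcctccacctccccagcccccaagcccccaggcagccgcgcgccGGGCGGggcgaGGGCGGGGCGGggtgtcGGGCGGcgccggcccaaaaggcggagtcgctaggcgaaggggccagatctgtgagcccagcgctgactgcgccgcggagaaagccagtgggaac
EPHB3: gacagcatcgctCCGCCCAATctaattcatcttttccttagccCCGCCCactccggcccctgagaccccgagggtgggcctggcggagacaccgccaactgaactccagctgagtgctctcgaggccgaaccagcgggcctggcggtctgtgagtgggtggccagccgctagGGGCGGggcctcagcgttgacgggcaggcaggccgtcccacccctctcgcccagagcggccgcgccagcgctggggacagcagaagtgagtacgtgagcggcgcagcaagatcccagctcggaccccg

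The 4 windows were rich in G and C, at 78.7% for EFNB2, 64.3% for EPHA2, 71.7% for EFNA1 and 69% for EPHB3. EFNB2 held 3 GC boxes and 2 CCAAT boxes, EPHB3 held 3 GC boxes and 1 CCAAT box that overlaps the first of them, and EFNA1 held 5 GC boxes, of which 1 pair shares a base. EPHA2 held 1 GC box and, between it and the start, the cAMP response element. The GC box stood in the windows of the 10 ephrin and Eph genes, EPHB2 included, against 44.6% of 27305 promoters of the same length. Those promoters were not matched for G and C, which made up 43% (EPHA4) to 83% (EPHB2) of the 10 windows. CCAAT stood in 5 of the 10 (EFNB1, EFNB2, EPHB3, EPHB4 and EPHB6) against 35.7%, and TGACGTCA in EPHA2 alone against 1.98%. The half-site AGGTCA, which retinoic acid receptors bind as repeats, was in 0 of the 10 windows and in 13.9% of promoters. As the direct repeat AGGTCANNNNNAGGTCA it was in 0.00366% of promoters and as AGGTCANNAGGTCA in 0 of 27305. Only these exact letters were searched, and other spellings of a site were not. Repeats this rare among all promoters cannot be expected in 10 windows, so no conclusion is drawn from their absence. A match is a run of letters in this window only, and so is its absence.

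EFNA1, the lipid-anchored ligand best known as a partner of EPHA2, ran the other way from EFNB2. Its signal at 202023_at, its only probe set, was 2146 and 1165 in trMCF clone 11, 602 and 521 at 1 μM ATRA, 487 and 492 at 10 μM ATRA, and 413 and 903 in MCF-10F. Both trMCF clone 11 arrays were above the 6 others, but the pair was far apart, as were the 2 MCF-10F arrays. The log2 difference was 1.37 in trMCF clone 11 against MCF-10F (SE 0.44, limma adjusted p = 0.161). It was -1.50 at 1 μM ATRA against trMCF clone 11 (limma adjusted p = 0.154) and -1.69 at 10 μM ATRA (0.0556), so no single dose passed the test. With both doses as 1 group, a contrast added after the data were seen, EFNA1 fell by 1.59 against trMCF clone 11 (SE 0.35, limma adjusted p = 0.0314). That call was lost without trMCF clone 11 replicate 1 (a log2 difference of -1.15, adjusted p = 0.121) and without any 1 of the 4 ATRA arrays (0.0948 to 0.113). At 10 μM ATRA alone EFNA1 passed without either MCF-10F array (0.0249) and without trMCF clone 11 replicate 2 (0.0156).

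The other 2 ligands varied little. EFNA5, a lipid-anchored ligand of EPHA receptors, was at 787 and 1027 in trMCF clone 11, 1024 and 1004 at 1 μM ATRA, 1007 and 1093 at 10 μM ATRA, and 752 and 1071 in MCF-10F at 227955_s_at. The groups overlapped, and the log2 difference in trMCF clone 11 against MCF-10F was 0.00 (interval -0.56 to 0.57). Its 3 dimmer probe sets passed no test. EFNB1, a transmembrane ligand and the gene mutated in craniofrontonasal syndrome, stayed between 76.0 and 88.9 on the 8 arrays at 202711_at. Its log2 difference at 1 μM ATRA against trMCF clone 11 was -0.07 (interval -0.44 to 0.30).

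EPHA2, the A-class receptor that binds EFNA1, rose with ATRA at both doses. Its 1 probe set, 203499_at, read 513 and 374 in trMCF clone 11, 1406 and 1540 at 1 μM ATRA, 1269 and 1546 at 10 μM ATRA, and 884 and 727 in MCF-10F. The 4 ATRA arrays lay above both MCF-10F arrays, which lay above both trMCF clone 11 arrays, and the 2 doses overlapped. EPHA2 rose by 1.75 on the log2 scale at 1 μM ATRA against trMCF clone 11 (SE 0.21, interval 1.23 to 2.26, limma adjusted p = 0.0310), a 3.36-fold difference. At 10 μM ATRA it rose by 1.68 (SE 0.20, limma adjusted p = 0.00871). In trMCF clone 11 against MCF-10F the log2 difference was -0.87 (SE 0.21, limma adjusted p = 0.0867), which passed only when the 10 μM arrays joined the fit (0.0453).

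In treated cells EPHA2 was 0.88 above MCF-10F on the log2 scale at 1 μM ATRA (interval 0.36 to 1.39, limma adjusted p = 0.212) and 0.81 above it at 10 μM ATRA (interval 0.32 to 1.29, 0.123). The groups did not overlap, but neither difference passed the test over the array. With both doses together the log2 difference was 0.84 (limma adjusted p = 0.0557). Without either trMCF clone 11 array, EPHA2 at 10 μM ATRA passed against MCF-10F (limma adjusted p = 0.0440, over a range of 0.0440 to 0.554 with 1 array left out).

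The rises of EFNB2 and EPHA2 held whichever trMCF clone 11 or MCF-10F array was left out, and both were lost without an array of the dose compared. Without 1 of the 1 μM arrays the limma adjusted p was 0.338 and 0.333 for EFNB2 and 0.338 and 0.371 for EPHA2, with log2 differences between 1.68 and 2.01 and 0 of 54613 probe sets passing. Without 1 of the 10 μM arrays it was 0.115 and 0.0677 for EFNB2 and 0.0784 and 0.0904 for EPHA2, with 97 and 119 probe sets passing, against 3387 with both arrays. The lone array was then assumed to vary like the other groups. With signals under 16 raised to 16, the limma adjusted p at 1 μM ATRA was 0.118 for EFNB2 and 0.123 for EPHA2. The lowest across the alternatives for both genes was 0.00359, for EPHA2 with both doses pooled, a contrast added after the data were seen.

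**Figure D2:**
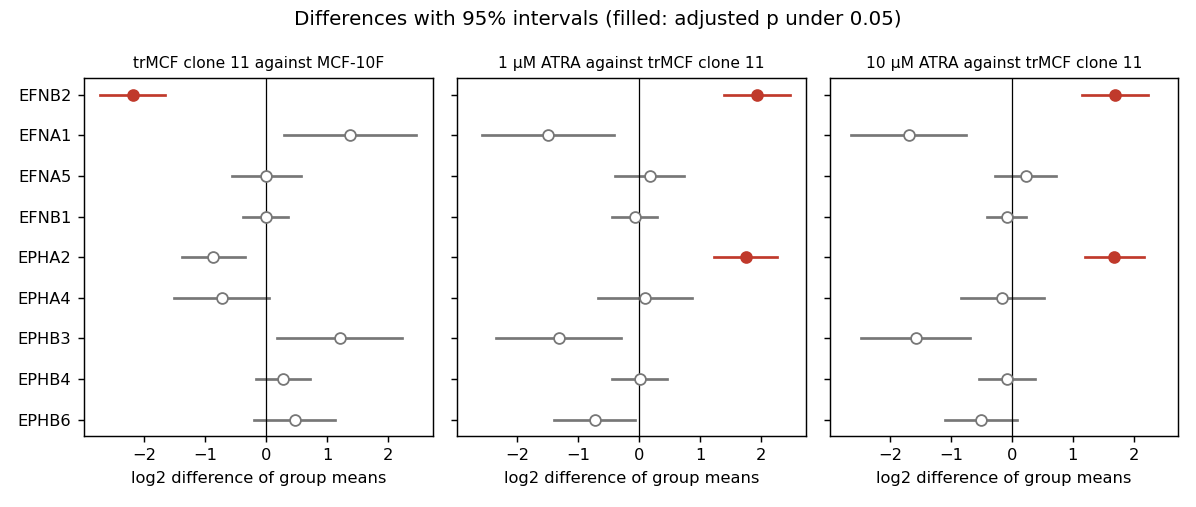
Log2 differences of group means (x axis) with 95% intervals for the 9 measured genes (y axis) in 3 comparisons, filled where the limma adjusted p over 54613 probe sets was under 0.05. EFNB2 is filled in the 3 panels and EPHA2 in the 2 ATRA panels, while EFNA1 and EPHB3 have wide intervals on the opposite side from EFNB2.

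EPHB3, a B-class receptor known from the intestinal crypt, was highest in the transformed clone, with 1 array well above the other. Its signal at 204600_at was 818 and 319 in trMCF clone 11, 208 and 201 at 1 μM ATRA, 161 and 182 at 10 μM ATRA, and 227 and 218 in MCF-10F. The 4 groups did not overlap, and the 6 arrays outside trMCF clone 11 lay close together. The log2 difference was 1.20 in trMCF clone 11 against MCF-10F (SE 0.42, limma adjusted p = 0.189). Against trMCF clone 11 it was -1.32 at 1 μM ATRA (limma adjusted p = 0.175) and -1.58 at 10 μM ATRA (0.0589). The second probe set, 1438_at, read 273 and 112 in trMCF clone 11, 74.7 and 67.3 at 1 μM ATRA, 67.9 and 70.3 at 10 μM ATRA, and 69.9 and 63.5 in MCF-10F. With both doses together EPHB3 fell by 1.45 against trMCF clone 11 (limma adjusted p = 0.0365), and by 1.32 at the second probe set (0.0425). Without trMCF clone 11 replicate 1 the fall was 0.77 (limma adjusted p = 0.0241). With trMCF clone 11 replicate 2 left out instead, EPHB3 passed at each dose (limma adjusted p = 0.00546 at 1 μM ATRA and 0.000679 at 10 μM ATRA, where the log2 difference was -2.26) and in trMCF clone 11 against MCF-10F (1.88, 0.00481). Calls over all probe sets grew without that array too, to 7272 against 846 at 1 μM ATRA, 9536 against 3387 at 10 μM ATRA and 8375 against 1943 in trMCF clone 11 against MCF-10F. The call for both doses was lost without either MCF-10F array (0.0528) and without any 1 ATRA array (0.105 to 0.121).

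EPHA4, a receptor that binds both ephrin classes, was dim in the clone with and without ATRA, and at 3 of its 5 probe sets both MCF-10F arrays lay above the 6 arrays of the clone. At 206114_at it read 43.4 and 39.4 in trMCF clone 11, 45.7 and 42.7 at 1 μM ATRA, 36.3 and 37.9 at 10 μM ATRA, and 96.1 and 49.1 in MCF-10F. At 227449_at it read 9.75 and 8.74 in trMCF clone 11, 10.3 and 13.0 at 1 μM ATRA, 7.94 and 10.4 at 10 μM ATRA, and 99.4 and 25.7 in MCF-10F. MCF-10F replicate 1 was the brightest array at 4 of the 5 EPHA4 probe sets. The log2 difference in trMCF clone 11 against MCF-10F was -0.73 at the first of these probe sets (limma adjusted p = 0.277) and -2.45 at the second (0.0873), and ATRA moved neither past the test. Without MCF-10F replicate 2 the first was -1.37 at 10 μM ATRA against MCF-10F and passed (limma adjusted p = 0.0169), while with both arrays it was -0.89 (0.219).

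EPHB4, the receptor that prefers ephrin-B2, varied little. It read 1018 and 805 in trMCF clone 11, 872 and 951 at 1 μM ATRA, 748 and 983 at 10 μM ATRA, and 807 and 692 in MCF-10F at 202894_at, and the groups next to each other overlapped. At 1 μM ATRA its log2 difference from trMCF clone 11 was 0.01 (interval -0.44 to 0.46). EPHB6, a receptor whose kinase domain is inactive, read 58.5 and 60.1 in trMCF clone 11, 28.4 and 45.0 at 1 μM ATRA, 39.1 and 44.6 at 10 μM ATRA, and 50.2 and 36.7 in MCF-10F at 204718_at. Both trMCF clone 11 arrays were above the others, with a log2 difference of -0.73 at 1 μM ATRA against trMCF clone 11 (limma adjusted p = 0.228).

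**Figure D3:**
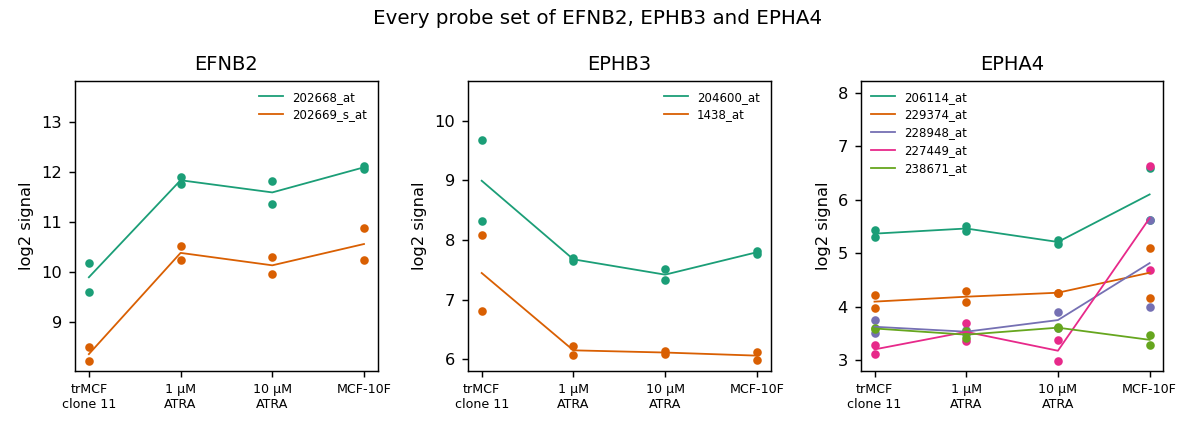
Log2 signal (y axis) at every probe set of EFNB2, EPHB3 and EPHA4 on each array (points), by group (x axis); lines join the means of 2 arrays. The 2 probe sets of EFNB2 move together, the 2 of EPHB3 share the high trMCF clone 11 array, and MCF-10F replicate 1 stands above the rest at 4 of the 5 EPHA4 probe sets.

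Counted together, 1 of the 9 measured genes fell (EFNB2) and 0 rose in trMCF clone 11 against MCF-10F, where 3.56% of all probe sets passed the test, 1.56% rising and 2% falling. Against trMCF clone 11, 2 rose (EFNB2 and EPHA2) and 0 fell at 1 μM ATRA, where 1.55% of probe sets passed (0.866% rising, 0.683% falling). The same 2 rose at 10 μM ATRA, where 6.20% passed (3.22% rising, 2.98% falling). The contrasts use the same 2 trMCF clone 11 arrays, so the return of EFNB2 is not independent of its fall. The genes were chosen with earlier results of these data known, so their share beside that of all probe sets is no test of the family. Of the 12 other family genes, 0 passed in these comparisons at the brightest probe set. Against MCF-10F, 0 of 9 passed at 1 μM ATRA (0.396% of probe sets) and 0 at 10 μM ATRA (1.80%), with 1 and 2 genes at an unadjusted limma p under 0.05, beside 10.3% and 13.8% of probe sets. In the first 3 comparisons 4, 5 and 4 of the 9 were under that unadjusted p, beside 19.9%, 18.7% and 20.6% of probe sets. With both doses pooled, 2 rose (EFNB2 and EPHA2) and 2 fell (EFNA1 and EPHB3) against trMCF clone 11, where 10.4% of probe sets passed (5.89% rising, 4.52% falling). The median log2 difference of the 9 was 0.0023, 0.0085 and -0.082 in the first 3 comparisons, beside 0.062, -0.065 and -0.014 over 19775 genes, with members on either side of 0. Under a 2-fold change and an unadjusted limma p under 0.05, 3, 4 and 4 of the 9 passed, against 7.74%, 6.77% and 7.13% of probe sets.

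No difference between the 2 doses passed the test in these genes. Between 10 μM and 1 μM ATRA, 0 of the 9 passed the limma test, 0 at an unadjusted p under 0.05, and 0% of all probe sets passed (1.69% unadjusted). The log2 difference between 10 μM and 1 μM ATRA was -0.24 for EFNB2 (interval -0.78 to 0.30), -0.07 for EPHA2 (-0.55 to 0.41), -0.19 for EFNA1 (-1.14 to 0.75) and -0.26 for EPHB3 (-1.16 to 0.64). The intervals for EFNA1 and EPHB3 still allow a 2-fold difference between the doses, but their width rests on a spread pooled over the 4 groups. The EPHB3 arrays lay 1.36 apart on the log2 scale in trMCF clone 11, and 0.05 and 0.18 apart at 1 μM and 10 μM ATRA. For EFNA1 this was 0.88 in trMCF clone 11, 1.13 in MCF-10F, and 0.21 and 0.01 at the 2 doses. In both genes the 10 μM arrays lay below the 1 μM arrays.

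The 12 remaining genes of the family each had a probe set, and EPHA3, EPHA6 and EPHA7 were dim, averaging below 16. Of the 12, 0 passed the limma test in any comparison at the brightest probe set. In the first 3 comparisons 3, 2 and 3 were at an unadjusted limma p under 0.05, near the 19.9%, 18.7% and 20.6% of all probe sets. EFNA3, an A ephrin, was at 390 and 228 in trMCF clone 11, 186 and 164 at 1 μM ATRA, 173 and 177 at 10 μM ATRA, and 145 and 188 in MCF-10F. EFNA4, another A ephrin, was at 73.3 and 102 in trMCF clone 11, 130 and 136 at 1 μM ATRA, 128 and 136 at 10 μM ATRA, and 132 and 119 in MCF-10F. EFNA3 thus lay above and EFNA4 below the 6 other arrays in trMCF clone 11, with log2 differences of 0.85 (limma adjusted p = 0.180) and -0.53 (0.215) against MCF-10F.

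The probe sets of EFNB3, a transmembrane ligand, disagreed. The brightest, 210883_x_at, stayed between 82.6 and 99.6 on the 8 arrays. The other, 205031_at, read 199 and 130 in trMCF clone 11, 58.4 and 58.5 at 1 μM ATRA, 62.9 and 56.0 at 10 μM ATRA, and 62.8 and 64.4 in MCF-10F. At this probe set, singled out after its values were seen, EFNB3 rose by 1.34 in trMCF clone 11 against MCF-10F (limma adjusted p = 0.0402) and fell by 1.46 at 1 μM ATRA (0.0484) and by 1.44 at 10 μM ATRA (0.0137) against trMCF clone 11. The first call was lost without either MCF-10F array (0.176 and 0.0988) or either 1 μM array (0.152). The second was lost without either MCF-10F array (0.0702) or either 1 μM array (0.397 and 0.428), and the third without either 10 μM array (0.115 and 0.124).

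**Figure D4:**
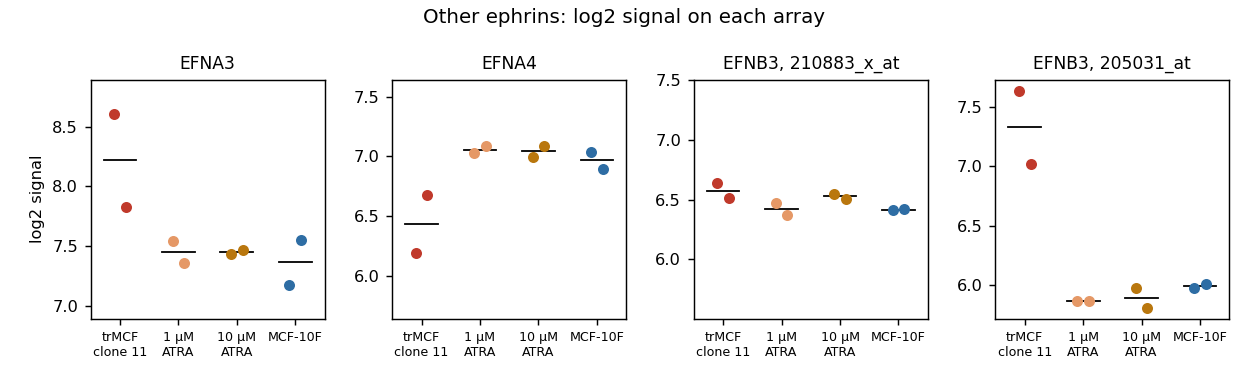
Log2 signal (y axis) of EFNA3, EFNA4 and both probe sets of EFNB3 on each array (points), by group (x axis); black lines are means of 2 arrays. EFNA3 and the second EFNB3 probe set are highest in trMCF clone 11, EFNA4 is lowest there, and the first EFNB3 probe set is flat.

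Cytoplasmic partners that carry the signal from Ephs and ephrins were read from a list of 50 genes, 46 of them with a probe set of their own. In trMCF clone 11 against MCF-10F, 1 of the 46 rose and 1 fell, close to the 3.56% of all probe sets that passed, so the count says nothing particular of the partners. CRKL, an adaptor between tyrosine kinases and small GTPases, rose by 1.35 on the log2 scale (limma adjusted p = 0.0182). Its signal was 3075 and 2713 in trMCF clone 11, 1715 and 1588 at 1 μM ATRA, 1646 and 1626 at 10 μM ATRA, and 1148 and 1119 in MCF-10F. At its dimmer probe set, 206184_at, the log2 difference was 1.07 and did not pass (limma adjusted p = 0.166). FYN, a Src-family kinase, fell by 2.05 at its brightest probe set (limma adjusted p = 0.0324), while its 4 other probe sets did not pass (-0.62, -0.37, -0.63 and -1.49) and the mean over its probe sets was -1.03 (0.0501). It was at 93.6 and 96.7 in trMCF clone 11, 110 and 73.6 at 1 μM ATRA, 75.1 and 65.5 at 10 μM ATRA, and 508 and 307 in MCF-10F. The 4 ATRA arrays lay near those of the clone and below both MCF-10F arrays, and 10 μM ATRA cells were 2.49 below MCF-10F on the log2 scale (limma adjusted p = 0.00937). Of its other probe sets, 212486_s_at passed there too (-1.46, limma adjusted p = 0.0488), while the rest did not (-1.19, -0.78 and -0.84).

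At 1 μM ATRA against trMCF clone 11, 0 of the 46 partners rose and 1 fell, near the 1.55% of all probe sets that passed. At 10 μM ATRA 1 rose and 5 fell, where 6.20% of probe sets passed (3.22% rising, 2.98% falling). The 2 counts come from fits of 6 and 8 arrays, and between the doses 0 of the 46 partners passed, as did 0% of probe sets. VAV3, an exchange factor that Eph receptors engage, was at 304 and 800 in trMCF clone 11, 25.0 and 35.2 at 1 μM ATRA, 30.7 and 20.2 at 10 μM ATRA, and 89.8 and 151 in MCF-10F. It fell by 4.06 at 1 μM ATRA (limma adjusted p = 0.0326) and by 4.31 at 10 μM ATRA (0.00729) against trMCF clone 11, the ATRA arrays lying below those of MCF-10F too. Its probe set 218806_s_at fell at both doses as well, while 224221_s_at, at most 16.8, did not pass (-0.64 and -0.66). PTPN13, a phosphatase that binds the tail of B ephrins, was at 264 and 451 in trMCF clone 11, 109 and 88.5 at 1 μM ATRA, 56.1 and 62.7 at 10 μM ATRA, and 204 and 274 in MCF-10F. It fell by 2.54 at 10 μM ATRA (limma adjusted p = 0.00686). TIAM1, an exchange factor for Rac, was at 197 and 175 in trMCF clone 11, 723 and 669 at 1 μM ATRA, 571 and 537 at 10 μM ATRA, and 745 and 389 in MCF-10F. It rose by 1.57 at 10 μM ATRA (limma adjusted p = 0.0248), while its dimmer probe set stayed between 31.6 and 63.1 and the mean of both did not pass (0.83, 0.135). CRKL fell by 0.82 at 10 μM ATRA (limma adjusted p = 0.0194), while its dimmer probe set did not pass (-1.20, 0.0833). The 2 others that fell, outside the naming rule, were GRB10 and RIN1. At 1 μM ATRA against trMCF clone 11 the log2 difference was -0.81 for CRKL (limma adjusted p = 0.0628) and -1.81 for PTPN13 (0.0540), neither passing. Against MCF-10F, 0 partners passed at 1 μM ATRA (0.396% of probe sets) and 3 fell at 10 μM ATRA (1.80% of probe sets passed), namely FYN, PTPN13 (a log2 difference of -1.99, limma adjusted p = 0.0196) and the adaptor GRB10 (-1.14, 0.0422).

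Of 10 proteases that cut Ephs or ephrins, 9 had a probe set, and ADAM12 was the 1 that passed, where 1.55% of all probe sets passed at 1 μM ATRA and 6.20% at 10 μM ATRA against trMCF clone 11, and 1.80% at 10 μM ATRA against MCF-10F. ADAM12, a metalloprotease that can shed A ephrins, was at 219 and 275 in trMCF clone 11, 1192 and 1562 at 1 μM ATRA, 1263 and 1392 at 10 μM ATRA, and 448 and 447 in MCF-10F. The 3 conditions formed separate steps, with the 4 ATRA arrays above the parental line. ADAM12 rose by 2.48 at 1 μM ATRA (limma adjusted p = 0.0172) and by 2.43 at 10 μM ATRA (0.00239) against trMCF clone 11, and by 1.57 at 10 μM ATRA against MCF-10F (0.0113). Its probe sets 213790_at and 202952_s_at rose at both doses as well, while 204943_at and 215613_at, all under 100, did not pass.

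With signals under 16 raised to 16, CRKL (limma adjusted p = 0.0503) and FYN (0.141) lost their calls in trMCF clone 11 against MCF-10F. So did VAV3 (0.153) and ADAM12 (0.0855) at 1 μM ATRA, and VAV3 (0.0552) and TIAM1 (0.104) at 10 μM ATRA. Against MCF-10F at 10 μM ATRA, FYN, PTPN13, GRB10 and ADAM12 lost theirs (0.0567 to 0.117). CRKL, PTPN13 and ADAM12 kept theirs at 10 μM ATRA against trMCF clone 11. Most of these partner and protease calls were also lost when an array was left out. In trMCF clone 11 against MCF-10F, CRKL and FYN were lost without MCF-10F replicate 1 (adjusted p = 0.0841 and 0.115) or either 1 μM array (0.106 and 0.119), and FYN also without trMCF clone 11 replicate 1 (0.0686). At 1 μM ATRA, VAV3 and ADAM12 were lost without either 1 μM array (adjusted p 0.244 to 0.350). At 10 μM ATRA against trMCF clone 11, CRKL, VAV3, PTPN13 and TIAM1 were lost without either 10 μM array (0.0695 to 0.183), and CRKL (0.0614) and TIAM1 (0.0703) without either 1 μM array, whereas ADAM12 passed each time (0.0471 at most). Against MCF-10F at 10 μM ATRA, FYN, PTPN13, GRB10 and ADAM12 were lost without either 10 μM array (0.0994 to 0.310), PTPN13 without MCF-10F replicate 2 (0.0640) or either 1 μM array (0.0627), and GRB10 without either MCF-10F array (0.125 and 0.0566) or either 1 μM array (0.125).

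**Figure D5:**
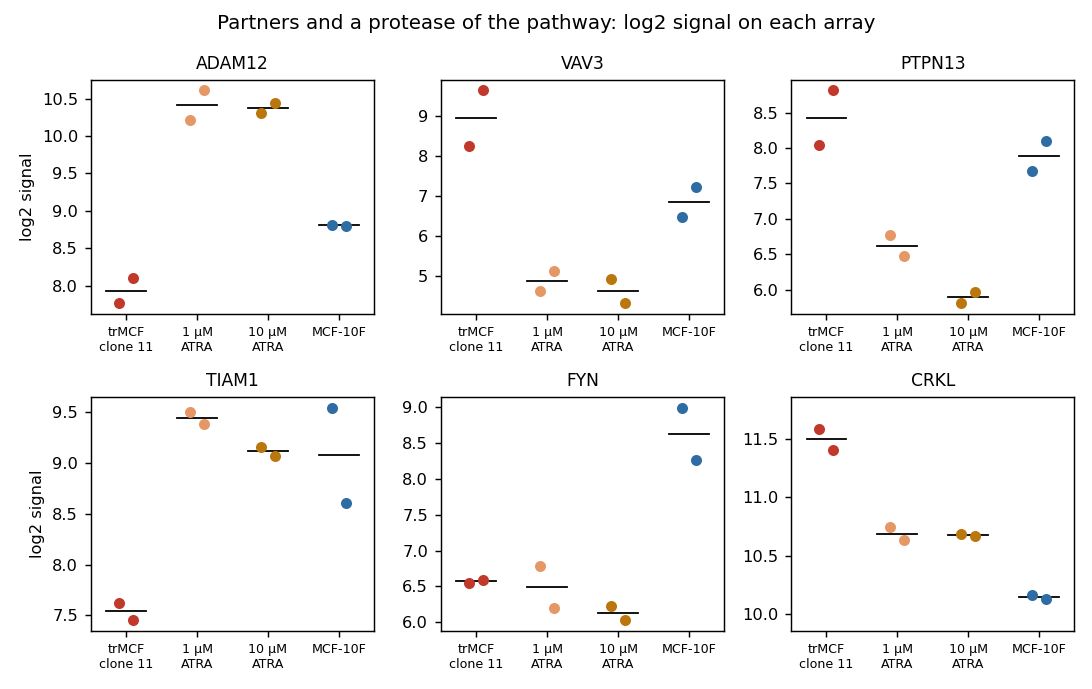
Log2 signal (y axis) of the protease ADAM12 and the partners VAV3, PTPN13, TIAM1, FYN and CRKL on each array (points), by group (x axis); black lines are means of 2 arrays. ADAM12 at both ATRA doses stands above MCF-10F, VAV3 and PTPN13 at both doses stand below it, and FYN in the clone stays low with or without ATRA.

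The genes whose pattern was most like that of EFNB2 were sought among 11161 genes with a mean log2 signal of at least 6. The 3 with the highest Pearson correlation of log2 signal over the 8 arrays were UBE2NL (r = 0.995), SYNCRIP (0.994), which encodes an RNA-binding protein, and PDE12 (0.992), which encodes a phosphodiesterase. PDE12 was at 259 and 395 in trMCF clone 11, 963 and 947 at 1 μM ATRA, 1016 and 883 at 10 μM ATRA, and 1155 and 1116 in MCF-10F. It fell by 1.83 in trMCF clone 11 against MCF-10F (limma adjusted p = 0.0227) and rose by 1.58 at 1 μM ATRA against trMCF clone 11 (0.0429). At 1 μM ATRA the other 2 did not pass (UBE2NL 0.86, limma adjusted p = 0.0595, and SYNCRIP 1.13, 0.0570). The points share their arrays in 4 groups of 2, so such likeness is a description of order among the groups.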

How the data were processed

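Expression was measured on 8 one-colour Affymetrix U133 Plus 2.0 arrays, 2 per group by title. The authors deposited linear intensity values, 1 per probe set and array. MAS 5.0 (scaled to a common mean) and Iterative Plier 16 are named in the methods, but the sources used here do not tie either to these values. They were taken to log2 with no further scaling, since the array medians lay between 47.4 and 48.9. Control probe sets (62) were left out, and 41091 of 54613 probe sets named a single gene, 1801 several and 11721 none. Array data have no read depth, and 2 arrays a group limit the precision. Group means were compared with limma 3.58.1 in R 4.3.3 (lmFit, eBayes), with Benjamini-Hochberg adjustment over 54613 probe sets and a threshold of 0.05. The fit held 6 arrays for comparisons without 10 μM ATRA, as in the methods, and 8 for the others. Named genes were the family, at most 4 list genes per comparison by p, and 3 genes of like pattern. Members, lists and markers were chosen with earlier results of these data known. The step was tested on simulated data. Promoter sequences came from RefSeq. Figures were drawn with matplotlib 3.10.9.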

Additional observations from a re-analysis of the deposited data

How the results depend on the processing

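Alternatives were another call rule, other sets of arrays in the fit, quantile normalization, dropping the dimmest 33% of probe sets, a trended and robust prior, a replicate block, a floor of 16, the mean over a gene's probe sets and leaving out each array. In trMCF clone 11 against MCF-10F, where 1 gene passed, the count was 3 under a 2-fold rule, 2 with 8 arrays, 0 with only the 4 arrays compared, 0 with the floor and 0 to 2 with an array left out. At 1 μM ATRA against trMCF clone 11, where 2 passed, it was 4 under the 2-fold rule, 0 with the floor, 4 with both doses together (added after seeing the data) and 0 to 3 with an array left out. At 10 μM ATRA against trMCF clone 11, where 2 passed, it was 4 under the 2-fold rule, 0 with only the 4 arrays compared, 4 without the dimmest probe sets, 3 with the trended and robust prior or the mean over probe sets (EFNA1 added), 1 with the floor, 4 with both doses together and 0 to 4 with an array left out. At 10 μM ATRA against MCF-10F it was 0 to 1 with an array left out (EPHA2 or EPHA4). The counts at 1 μM ATRA against MCF-10F and between doses were 0 under each alternative. The cause of these changes was not tested.

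Calls over all probe sets moved more: 1943 in trMCF clone 11 against MCF-10F became 33 with only the 4 arrays compared, 4492 with 8 arrays and 207 with the floor, and 846 at 1 μM ATRA against trMCF clone 11 became 3209 with 8 arrays and 99 with the floor. At 10 μM ATRA against trMCF clone 11, 3387 became 818 with only the 4 arrays compared and 1021 with the floor. It became 3487 without the dimmest probe sets and 2982 with the trended and robust prior. Without trMCF clone 11 replicate 2 the counts were 8375, 7272 and 9536 in the first 3 comparisons, against 1943, 846 and 3387, and without MCF-10F replicate 1 the first was 294. Replicate numbers were not taken to pair the samples, since the labels tie them to nothing. The correlation of replicate differences passed 0.1 in 3 of 6 pairs of groups (range -0.056 to 0.351). It was highest between the 2 ATRA doses, and its cause was not tested. The replicate block left the counts of called ephrin and Eph genes at 1, 2 and 2 in the first 3 comparisons, with 1002, 428 and 3135 probe sets called. It ended the EFNB3 calls at 205031_at in trMCF clone 11 against MCF-10F (adjusted p = 0.0581) and at 1 μM ATRA (0.0677), and that of GRB10 at 10 μM ATRA against MCF-10F (0.0601).

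Of the single-gene values that passed the test, 247 kept their call under an alternative and 94 lost it. With only the 4 arrays compared, CRKL and FYN lost their calls in trMCF clone 11 against MCF-10F (limma adjusted p = 0.106 and 0.119). CRKL also lost its call at 10 μM ATRA against trMCF clone 11 (0.0922), and GRB10 at 10 μM ATRA against MCF-10F (0.0546). VAV3, PTPN13, TIAM1 and ADAM12 kept theirs. Over all single-gene values, past the test or not, 985 kept direction and call, 25 gained a call and 29 changed sign, none of the last past the test. Reversed log2 differences were 0.0381 for EFNB1 in trMCF clone 11 against MCF-10F and -0.0324 for EPHB4 at 1 μM ATRA against trMCF clone 11 under quantile normalization, 0.0140 for EFNB1 between doses under the same, 0.0253 for EPHA4 at 10 μM ATRA against trMCF clone 11 and -0.0033 for EFNA5 between doses as means over probe sets, and -0.0297 for EPHA4 and -0.0345 for EPHB4 with both doses together. With an array left out, values crossing 0 ran from -0.25 to 0.26 for EFNA5 and -0.0544 to 0.0319 for EFNB1 in trMCF clone 11 against MCF-10F. At 1 μM ATRA against trMCF clone 11 they ran from -0.0175 to 0.366 for EFNA5, -0.183 to 0.0348 for EFNB1 and -0.16 to 0.18 for EPHB4, and at 10 μM ATRA from -0.27 to 0.12 for EPHB4. Against MCF-10F they ran at 1 μM ATRA from -0.69 to 0.44 for EFNA1, -0.0787 to 0.432 for EFNA5, -0.194 to 0.0236 for EFNB1 and -0.597 to 0.0680 for EPHB6, and at 10 μM ATRA from -0.88 to 0.25 for EFNA1, -0.0297 to 0.481 for EFNA5 and -0.27 to 0.19 for EPHB6. Between doses they ran from -0.0101 to 0.108 for EFNA5, -0.12 to 0.10 for EFNB1, -0.214 to 0.0706 for EPHA2, -0.28 to 0.11 for EPHB4 and -0.11 to 0.56 for EPHB6.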

Other observations

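MCF-10F replicate 1 stood apart at a dim probe set of another family receptor. EPHA5 at 237939_at read 30.0 on that array and between 5.89 and 6.84 on the other 7, whereas its brightest probe set, 216837_at, read 24.3 there and 20.4 to 31.8 elsewhere.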
